A study of Homo sapiens with 16 samples.

Results

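H3K4me3, the trimethyl mark on lysine 4 of histone H3, was mapped once in WM164 cells overexpressing GFP and once in WM164 cells overexpressing MAFG. WM164 is an established human melanoma cell line, and the GFP line served as the control for the MAFG line. All H3K4me3 peaks on chromosomes 1 to 22 and X were taken, 13579 from the GFP-cell library and 11580 from the MAFG-cell library, together 25159 of the 163320 peaks in the 14 peak lists of the series. The remaining lists came from anti-MAFG and anti-MITF libraries of the same lines, 3 per antibody and line. Both lines were grown in the same serum-containing medium, with no further treatment named, and nuclei of scraped adherent cells were profiled by CUT&RUN, in which an antibody directs a nuclease to cut out nearby chromatin for sequencing. The labels do not say which vector or promoter drove either transgene or whether a line was 1 clone or a pool. With 1 H3K4me3 library per line, no difference between the lines has a replicate check, and every comparison of the mark is a description without a test.

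H3K4me3 is laid down by SET1 and MLL methyltransferase complexes, which are recruited to CpG-rich promoters and to transcribing RNA polymerase II, and it covers the first nucleosomes downstream of active gene starts. Broad domains of the mark are known at genes that define a cell's identity. MAFG is a small MAF protein without an activation domain of its own; it binds antioxidant response elements as a dimer with partners such as NRF2 (encoded by NFE2L2) or BACH1, while MITF, the regulator of the pigment lineage, binds E-box and M-box elements.

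The promoters of 8 genes are printed to show promoters of MITF and NRF2 targets, of MAFG itself and of genes with a strong GFP-only peak. They are the 250 bases before the RefSeq start (GRCh38.p14), written 5′ to 3′ on the gene's strand, with matches to the antioxidant response element TGACNNNGC, the E-box CACGTG or the M-box CATGTG in capitals on either strand. Each motif was searched on its own, so that 1 base could count for more than 1 motif. TYR (chr11:89177625-89177874), SLC24A5 (chr15:48120740-48120989) and BCL2A1 (chr15:79971197-79971446), all known MITF targets, hold an M-box. GCLM (chr1:93909431-93909680) and TXNRD1 (chr12:104286782-104287031), known NRF2 targets, hold an antioxidant response element, and MAFG (chr17:81927736-81927985) holds an E-box. PARP8 (chr5:50666387-50666636) and ITGA1 (chr5:52787666-52787915), where a strong peak was listed in GFP cells only, hold antioxidant response elements.
TYR: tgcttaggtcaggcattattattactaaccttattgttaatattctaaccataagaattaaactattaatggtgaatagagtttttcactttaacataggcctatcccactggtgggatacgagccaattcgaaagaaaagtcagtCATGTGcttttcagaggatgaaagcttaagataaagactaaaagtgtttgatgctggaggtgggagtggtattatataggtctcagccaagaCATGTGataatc
SLC24A5: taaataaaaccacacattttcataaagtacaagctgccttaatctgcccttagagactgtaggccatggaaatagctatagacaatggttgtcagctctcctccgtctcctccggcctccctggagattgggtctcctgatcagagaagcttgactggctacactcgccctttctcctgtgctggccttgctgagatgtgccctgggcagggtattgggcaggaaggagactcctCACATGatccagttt
BCL2A1: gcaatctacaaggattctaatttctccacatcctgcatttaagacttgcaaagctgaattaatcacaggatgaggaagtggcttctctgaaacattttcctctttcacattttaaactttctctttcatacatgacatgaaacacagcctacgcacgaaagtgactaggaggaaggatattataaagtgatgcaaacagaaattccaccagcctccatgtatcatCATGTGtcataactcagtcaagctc
GCLM: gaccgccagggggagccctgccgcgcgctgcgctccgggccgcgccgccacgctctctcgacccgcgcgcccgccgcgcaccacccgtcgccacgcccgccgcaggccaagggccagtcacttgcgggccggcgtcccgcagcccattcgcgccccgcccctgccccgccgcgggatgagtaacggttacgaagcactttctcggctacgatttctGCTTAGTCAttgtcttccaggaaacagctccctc
TXNRD1: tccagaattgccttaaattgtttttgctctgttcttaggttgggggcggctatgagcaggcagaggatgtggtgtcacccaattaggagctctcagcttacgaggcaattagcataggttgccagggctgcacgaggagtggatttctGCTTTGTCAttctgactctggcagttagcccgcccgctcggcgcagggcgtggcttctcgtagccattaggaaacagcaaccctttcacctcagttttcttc
MAFG: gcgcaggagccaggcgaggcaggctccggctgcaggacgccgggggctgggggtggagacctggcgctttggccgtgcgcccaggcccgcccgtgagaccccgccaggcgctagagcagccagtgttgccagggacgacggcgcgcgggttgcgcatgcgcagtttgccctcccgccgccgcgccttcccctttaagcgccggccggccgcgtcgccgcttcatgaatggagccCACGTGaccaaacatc
PARP8: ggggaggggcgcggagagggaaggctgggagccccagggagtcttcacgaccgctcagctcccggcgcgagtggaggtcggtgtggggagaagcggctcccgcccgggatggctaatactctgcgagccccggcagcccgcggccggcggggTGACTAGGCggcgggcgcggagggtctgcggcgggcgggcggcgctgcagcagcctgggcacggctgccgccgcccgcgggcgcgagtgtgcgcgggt
ITGA1: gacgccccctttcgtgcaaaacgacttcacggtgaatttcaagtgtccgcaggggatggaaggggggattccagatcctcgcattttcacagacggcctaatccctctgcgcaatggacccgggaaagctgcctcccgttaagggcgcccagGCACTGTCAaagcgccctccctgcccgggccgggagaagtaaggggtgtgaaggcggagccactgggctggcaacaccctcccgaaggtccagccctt

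A match to the antioxidant response element stood in 11.2% of all 22132 protein-coding starts with a sequence, a match to the E-box in 7.37% and a match to the M-box in 7.60%. These genes were chosen after their peaks and letters were seen, and a match is a description of the sequence. The first M-box of TYR began 104 bases before the start and the second 12 bases before it. That of SLC24A5 began 15 bases and that of BCL2A1 25 bases before the start. Among starts lying in both peaks of a shared pair, 12.4% had the antioxidant response element, 8.61% the E-box and 4.57% the M-box. Among starts in no peak the shares were 10.3%, 5.68% and 10.5%. Marked and unmarked starts also differed in base composition: the ratio of observed to expected CpG had a median of 0.851 at starts in shared pairs, 0.751 at starts in peaks of GFP cells only and 0.361 at starts in no peak.

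The mark lay at active promoters in both lines. Of the summits on chromosomes with listed starts, 63.8% in GFP cells and 71.6% in MAFG cells were within 1000 bp of a start. In GFP cells 87.4% of these summits were downstream of the start and in MAFG cells 87.0%, at a median of 302 bp and 301 bp after it. As a check of the label, 7 of 8 melanocyte markers (MITF, SOX10, PMEL, TYR, S100B, ERBB3 and PAX3) had a peak in both lines, and MLANA had none in either. None of 6 keratinocyte and epithelial, 4 endothelial or 6 liver, muscle and neuron markers had a peak. Of 6 blood-cell and 6 fibroblast markers, SPI1 and PDGFRA each had a weak peak in GFP cells only, with a fold enrichment of 5.09 and 8.74.

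Nearly all MAFG-cell peaks were found again in GFP cells, whereas a set of mostly weak GFP-cell peaks was missing from the MAFG-cell list. Peaks that overlapped by at least 1 bp and were each other's largest overlap formed 10826 shared pairs, 79.7% of the GFP-cell and 93.5% of the MAFG-cell peaks. Another 32 GFP-cell and 669 MAFG-cell peaks overlapped the other list without being the best match. No overlap was found for 2721 GFP-cell peaks (20% of 13579) and for 85 MAFG-cell peaks (0.734% of 11580). Among 19974 protein-coding genes, 10250 (51.3%) had a shared pair at a start, or within 1000 bp of an end where no start was listed, 538 (2.69%) a peak in GFP cells only and 6 (0.0300%) a peak in MAFG cells only.

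Peak strength was read in 2 ways. The deposited fold enrichment compares the summit with the local background used by the peak caller. The series also holds an IgG library of each line, and the processing notes do not say whether it served as the control. The number of fragments piled up at the summit was recovered from the deposited fold enrichment and p-value, and was a median of 62 per peak in GFP cells and 84 in MAFG cells. Recovered numbers rest on an inferred formula that matched 100% of GFP-cell peaks and 99.99% of MAFG-cell peaks. The weakest listed peak had 5 fragments in GFP cells and 12 in MAFG cells, so weak sites could enter the GFP-cell list at a lower number.

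The peaks without a MAFG-cell counterpart were mostly weak. Of the GFP-cell peaks with 5 to 11 fragments, 1299 of 1387 (93.7%) had no overlap in MAFG cells, and of those with 12 to 24 fragments 1211 of 1908 (63.5%) had none. The share was 8.51% at 25 to 49 fragments and 0.229% at 50 to 99, and 0 of 3562 peaks with 100 or more fragments lacked an overlap. GFP-only peaks had a median width of 647 bp against 2504 bp for paired peaks of the same library, and 22.5% of them held a protein-coding gene against 83.5% of the paired ones.

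**Figure D1:**
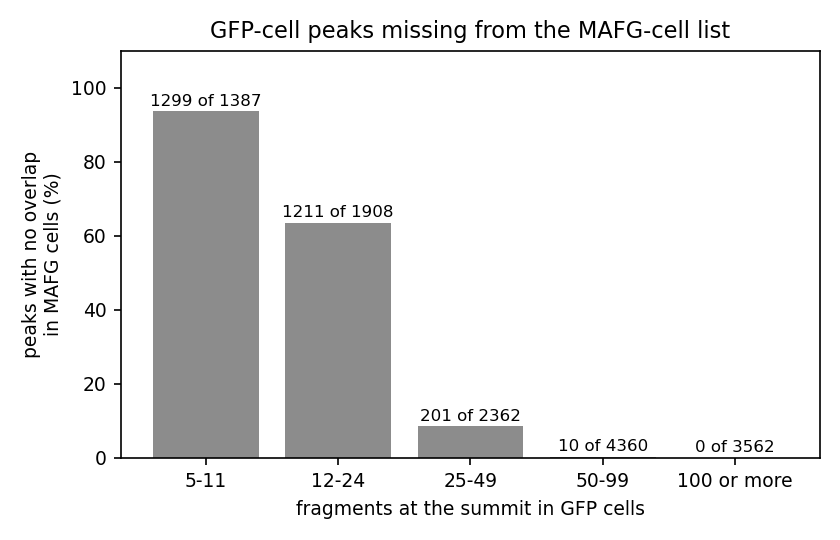
Share of GFP-cell H3K4me3 peaks with no overlapping peak in MAFG cells (bars, %), by the number of fragments recovered at the GFP-cell summit, with the numbers of peaks above the bars. The share goes from 93.7% in the weakest class to 0 in the strongest.

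A few strong promoter peaks were nevertheless listed in GFP cells only. Only 10 of the 2721 had 50 or more fragments. PARP8, which encodes a mono-ADP-ribosyltransferase, had the highest number, 90 fragments over a peak of 3243 bp (chr5:50666412-50669654, fold enrichment 46.4). On the same chromosome ITGA1, the collagen-binding integrin subunit alpha 1, and PELO, a ribosome rescue factor, shared a peak of 2836 bp with 73 fragments (chr5:52787237-52790072, fold enrichment 41.8). ISL1, a LIM homeobox factor between them, had 40 fragments (chr5:51382871-51385327, fold enrichment 21.7). Together with 2 weak peaks these were 5 consecutive GFP-cell peaks without any MAFG-cell peak, from chr5:50440591 to chr5:52790072. Over that span the 3 anti-MAFG libraries of GFP cells held 11, 9 and 5 peaks and the 3 anti-MITF libraries 3, 4 and 4, while all 6 libraries of MAFG cells held 0. Those MAFG-cell lists were short throughout, with 1836 to 2818 anti-MAFG and 2116 to 2495 anti-MITF peaks against 14879 to 26221 and 19828 to 20117 in GFP cells, so the absence there was not tested.

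Other GFP-only peaks with 50 or more fragments lay on several chromosomes. HS3ST3B1 (chr17:14300888-14303901) and HS3ST3A1 (chr17:13597158-13603634), neighbouring genes for heparan sulfate 3-O-sulfotransferases, had 81 and 83 fragments, and the HS3ST3A1 peak was the widest GFP-only peak at 6477 bp. RNF43, a ubiquitin ligase that removes Wnt receptors, had 58 fragments over 4896 bp. MTSS1, an actin-binding scaffold, had 65 fragments, and the promoter of C19orf38 and TMED1 had 52. The other 3 held no protein-coding gene and lay on chromosomes 1, 7 and 22, with 62, 60 and 50 fragments. CALCOCO1, LIMD2, POLR2J and IFI30 had fold enrichments from 24.4 to 25.8, with 38 to 45 fragments. In MAFG cells 1 unmatched peak at a gene met the limits for naming, KLHL32, a weak peak of 649 bp with 20 fragments and a fold enrichment of 6.44 (percentile 12.8 of its list, against 44.1 to 73.2 for the 10 named GFP-only peaks). The strongest MAFG-only peak anywhere had a fold enrichment of 13.7.

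GFP-only peaks also stood in longer runs. The longest, 11 consecutive peaks over 611 kb (chr5:140710368-141321535), covered the protocadherin alpha and beta clusters, whose genes encode cell-surface recognition proteins of neurons, and ended at TAF7, a subunit of the general transcription factor TFIID. PCDHA2, PCDHB9 and PCDHB11 had 18, 11 and 11 fragments and TAF7 had 39. In that span GFP-cell libraries held 12, 11 and 7 anti-MAFG and 5, 8 and 6 anti-MITF peaks, and each MAFG-cell library held 1. A run of 5 peaks on chromosome 19 held the zinc finger genes ZNF253, ZNF737 and ZNF66 with 23, 10 and 25 fragments, and no anti-MAFG or anti-MITF peak in any library. Protocadherin and zinc finger genes have near-identical copies, so that their counts are uncertain. Of all runs, 6 had at least 5 peaks. A run of 6 on chromosome 17 and a run of 5 on chromosome 11 held no protein-coding gene, with a highest fold enrichment of 9.07 and 7.27. The run of 5 on chromosome 4 held CTSO, PDGFC and GASK1B with 23, 20 and 13 fragments.

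Shared peaks were narrower in the MAFG-cell list almost throughout. The median width in shared pairs was 2504 bp in GFP cells and 1862 bp in MAFG cells, and the median of the pairwise width ratios was 0.773 (log2 -0.37, quartiles -0.67 and -0.19). MAFG-cell peaks were the narrower in 10284 of 10826 pairs. The order of widths was nonetheless similar (Spearman's rho 0.874 across pairs, which are not replicates). The narrowing was larger at weak peaks: the median log2 ratio was -0.60 in the quintile of pairs with the lowest GFP-cell fold enrichment and -0.28 in the highest quintile.

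**Figure D2:**
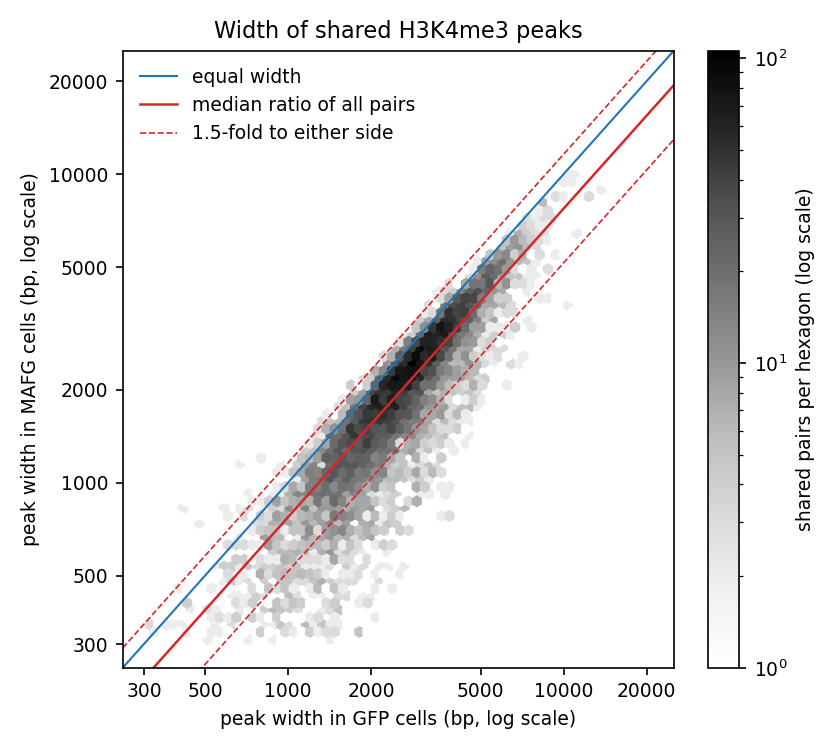
Width of the 2 peaks of each shared pair (bp, both axes on a log scale), GFP cells on the horizontal and MAFG cells on the vertical axis, with hexagons shaded by the number of pairs. The cloud lies below the line of equal width and widens towards narrow peaks, and the median ratio is 0.773.

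For single genes the ratio was therefore centred on the median of all pairs, and 1.5-fold to either side was counted. By this count 140 pairs (1.29%) were wider and 1449 (13.4%) narrower in MAFG cells. The pairs nearest the limits were IFT56 at 0.588 and POLR2C at 0.584 for wider, and STEEP1 at -0.585 and KMT5C at -0.582 for narrower. Of the narrower pairs 416 (28.7%) had a GFP-cell peak that was covered by several MAFG-cell peaks, against 639 (5.90%) of all pairs. Narrower pairs made up 27.4% of the pairs on chromosome X and 21.8% on chromosome 14, against 8.14% on chromosome 20. Pairs on these chromosomes had a median of 38, 84 and 121 GFP-cell fragments, in that order. The part of peak strength in these shares was not tested.

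Among the 7527 pairs strong enough to be named, a pigment gene stood out among those wider in MAFG cells. SLC45A2, the melanosomal transporter whose loss causes oculocutaneous albinism, had a peak of 1535 bp in GFP cells and 2374 bp in MAFG cells (chr5:33982922-33984456 in GFP cells). Its summit had 14 fragments in GFP cells and 86 in MAFG cells. Relative to the median ratio of all pairs, which was 1.14, this was 5.39-fold (95% counting interval 3.05 to 10.3, from the exact binomial split of the fragments, with no replicate). ROBO2, a receptor for SLIT guidance cues, went from 2662 to 3974 bp and from 41 to 142 fragments, 3.04-fold over the median ratio (interval 2.13 to 4.42). FUCA1, lysosomal fucosidase, was 794 and 1208 bp wide, with 57 and 67 fragments. At KDM7A, ZNF3, ITIH6 and the promoter shared by ATP6V1E2 and RHOQ, 1 MAFG-cell peak covered 2 GFP-cell peaks, so that the gain in width includes the gap between them. CMBL, PICK1 and DEF8 completed the 10 widest gains with GFP-cell peaks of 588 to 847 bp.

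Among the largest losses of width, most genes had fewer summit fragments in GFP cells than the median of paired peaks, which was 77. NRXN3, a synaptic adhesion protein, had a peak of 3291 bp in GFP cells and 529 bp in MAFG cells, with 25 and 23 fragments at the summit. GLI1, a Hedgehog effector, had 3963 and 786 bp with 40 and 46 fragments, and APOD, a lipocalin, had 3732 and 772 bp with 54 and 44. TRIM55 had 2656 and 505 bp, and WDR88, ZNF532, TVP23B and EEF2KMT between 2110 and 3022 bp in GFP cells and between 547 and 721 bp in MAFG cells. Summit fragments at these genes differed far less than the widths did: the MAFG-cell to GFP-cell ratio, over that of all pairs, ran from 0.715 at APOD to 1.09 at TRIM55 and EEF2KMT. GLI1, TRIM55 and TVP23B were each covered by 2 MAFG-cell peaks, which together measured 1379, 840 and 918 bp. The peak of LOC124904276, with 137 fragments and 7857 bp in GFP cells the strongest of these, was covered by 3 MAFG-cell peaks, of which the paired one measured 1906 bp and all of them together 4577 bp.

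The broadest shared domains, by the mean of both widths, included promoters of pigment and signalling genes. The promoters of PMEL, CDK2 and RAB5B, which encode the melanosome fibril protein, a cell-cycle kinase and a vesicle GTPase, shared a domain of 12731 bp in GFP cells and 12362 bp in MAFG cells, with 204 and 207 fragments at its summit. NR2F2, a nuclear receptor of neural crest cells, had 12139 and 11761 bp. LEF1, a nuclear effector of Wnt signalling, had 14148 and 9217 bp, and IRS2, an adaptor of insulin signalling, 13501 and 8997 bp. These MAFG-cell widths are of the paired peak only. At LEF1 2 MAFG-cell peaks together measured 12041 bp, and at IRS2 3 measured 11347 bp. SPRY4, a feedback inhibitor of MAPK signalling, had 12745 and 9195 bp (11870 bp over 2 MAFG-cell peaks). KMT2E, PTGR3 with TSHZ1, and CDKN1B with GPR19 ranged from 11543 to 12256 bp in GFP cells and from 9048 to 9888 bp in MAFG cells. At CDKN1B with GPR19, 2 MAFG-cell peaks together measured 10669 bp. DUSP4, a MAPK phosphatase, had 13470 and 8950 bp (9425 bp over 2 MAFG-cell peaks). The widest domain at a protein-coding gene lay over LOC124905135 and measured 19303 bp in GFP cells and 10144 bp in MAFG cells, where 2 peaks together covered 15006 bp.

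The within-library rank of a shared peak depended on which measure of strength set it. Ranks are percentiles among the shared pairs of a library. By fold enrichment, rho between the lines was 0.714 and the median absolute shift was 13.4 percentile points. By summit fragments rho was 0.943 and the median absolute shift was 5.32 points. By fold enrichment 1774 pairs (16.4%) stood at least 20 points higher in MAFG cells and 1865 (17.2%) at least 20 points lower. By fragments 247 (2.28%) stood higher and 298 (2.75%) lower. Both measures together were met by 132 of the 1774 and 131 of the 1865. At the 20-point limit lay PEDS1 (20.0046) and STT3B (20) on the higher side, and PRKD3 (-20.0277) and BICRA (-19.9815) on the lower side.

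**Figure D3:**
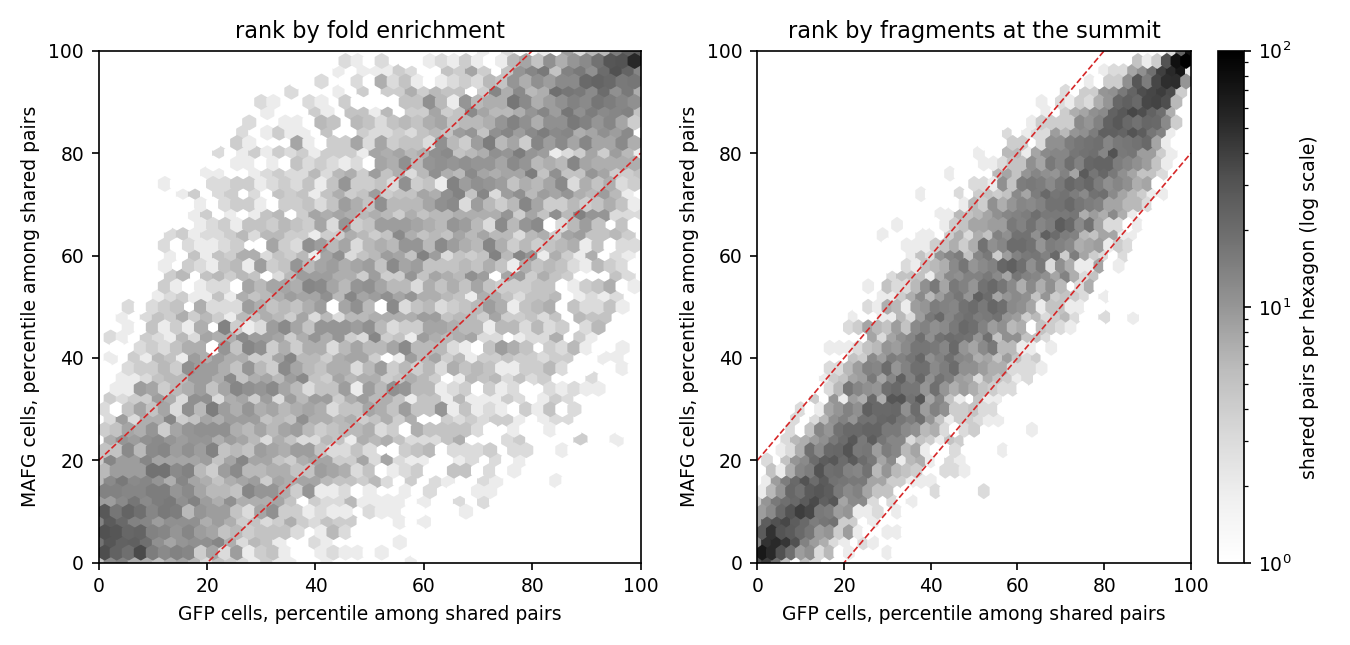
Percentile rank of each shared pair in GFP cells (horizontal) and MAFG cells (vertical), by fold enrichment on the left and by summit fragments on the right. Hexagons are shaded by the number of pairs and dashed lines mark 20 points to either side. The left cloud is broad (rho 0.714) and the right one narrow (rho 0.943).

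Shifts in the fold-enrichment rank moved with the background recovered at the site, in scaled fragments. That background was solved from the same fold enrichment that sets the rank. A difference in it between pairs chosen by that rank therefore follows largely from the calculation and is no separate observation. Pairs that ranked higher in MAFG cells had a median background of 1.68 in GFP cells and 0.319 in MAFG cells. Pairs that ranked lower had 0.768 and 2.0, and all pairs 0.962 and 1.0. At backgrounds this low, a difference of a few scaled fragments moves the fold enrichment strongly. The part of the background in the shifts was not tested beyond ranking by fragments.

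EGR1, an immediate early transcription factor, had the lowest shift in rank among the named pairs. Its fold enrichment was 65.2 in GFP cells and 5.17 in MAFG cells, so that it stood at percentile 85.6 and at percentile 4.64. The summit held 152 fragments in GFP cells and 130 in MAFG cells before scaling, and the background was 1.35 and 8.0 in scaled fragments. The peak was 5089 and 3842 bp wide. XPO1, the nuclear exporter, had a shift of -72.0 points by fold enrichment with 175 and 190 fragments. CUEDC2, COPS3, GATD1, TXNDC15 and the promoter of HCFC1R1, THOC6 and TNFRSF12A had shifts of -74.6 to -71.7 points, with summit ratios over that of all pairs between 0.779 and 1.05. The promoter of AP4S1 and STRN3 had 141 and 120 fragments, with a ratio interval of 0.581 to 0.960. PTGR2 and SRSF5, a prostaglandin reductase and a splicing factor on chromosome 14, were lower by both measures, with 108 and 50 fragments at PTGR2 and 98 and 66 at SRSF5.

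The 10 pairs with the highest shift in rank had backgrounds of 2.30 to 6.14 in GFP cells and 0.243 to 0.496 in MAFG cells. RBBP6, a ubiquitin ligase that binds p53 and RB, stood 72.0 points higher by fold enrichment (22.4 in GFP cells and 47.0 in MAFG cells). It had 159 and 173 fragments before scaling, and a background of 6.14 and 0.310 in scaled fragments. The promoter of STAT2 and APOF had 68 and 99 fragments and COPS7B 73 and 110, and both intervals of the ratio over that of all pairs included 1. FNDC3B stood 69.0 points higher by fold enrichment with 104 and 98 fragments. Of the 10, only ZC3HAV1L had a counting interval above the median ratio, with 65 and 115 fragments (1.55-fold, interval 1.14 to 2.14).

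Ranking by summit fragments, a choice made after the background had been seen, put other genes at the extremes. Counting intervals of pairs picked this way, ROBO2 and SLC45A2 included, come from the same fragments and lie off 1 by selection. After ROBO2, the highest shifts were at LIF, a cytokine of the interleukin 6 family, with 50 and 152 fragments, and SHB, an adaptor of receptor tyrosine kinases, with 50 and 141. SLC45A2 followed. IFFO2, CADPS, TBC1D14 and NBPF3 had ratios of 1.85 to 2.33 over that of all pairs. RGMB, a co-receptor for bone morphogenetic proteins, had the lowest shift, with 113 fragments and a peak of 7511 bp in GFP cells and 33 fragments and 2408 bp in MAFG cells (0.256-fold over the median ratio, interval 0.168 to 0.381). SDC2, the proteoglycan syndecan 2, had 129 and 45 fragments. TNS2, a focal adhesion protein, had 206 and 89 fragments and a peak of 10727 and 3736 bp. UPP1, uridine phosphorylase, NPC2, the lysosomal cholesterol carrier, FKBPL and PDZRN3 had 93 to 121 fragments in GFP cells and 52 to 68 in MAFG cells. Of the histone genes, H2AJ had 99 and 53 fragments and H2AZ1 129 and 78, and both belong to families with similar copies, so that their counts are uncertain. The summits of a pair did not always mark the same site: they lay 4667 bp apart at RGMB, 3674 bp at TNS2, 3168 bp at H2AZ1, 1973 bp at FKBPL and 1568 bp at UPP1, and more than 1 MAFG-cell peak covered the GFP-cell peak at each. They lay 1660 bp apart at KDM7A and 1463 bp at ATP6V1E2 and RHOQ. Over all pairs the median gap was 81 bp, and 2.12% of pairs had a gap over 1000 bp. Fragments at these 7 promoters were therefore read at different sites in the 2 lines. Fewer cells carrying the mark and less of the mark per cell cannot be told apart in such bulk libraries.

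Fragment ratios were not even along the genome. In 254 windows of 10 Mb with at least 15 shared pairs, the median log2 ratio minus that of all pairs had quartiles of -0.06 and 0.09. All 14 windows at or below -0.25 lay on chromosomes 3 (6 windows), 14 (5 windows) and 8 (3 windows). On the first 60 Mb of chromosome 3 the median of 251 pairs was -0.30 and 206 of them (82.1%) were below that of all pairs, against a median of -0.08 over the 352 pairs of the rest of the chromosome. On chromosome 14 from 60 Mb onward the median of 190 pairs was -0.42 and 171 were below. PTGR2, SRSF5, NPC2, NRXN3 and FOS lie in that stretch. Chromosome 7 was at the other end with a median of 0.14. Of the 5 windows at 0.25 or more, 2 were on chromosome 7 and the others on chromosomes 2 and 6. Of 201 pairs with a protein-coding gene that ranked at least 20 points lower by fragments, 40 were on chromosome 3 and 39 on chromosome 14, whose genes made up 444 and 250 of the pairs that could be named.

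**Figure D4:**
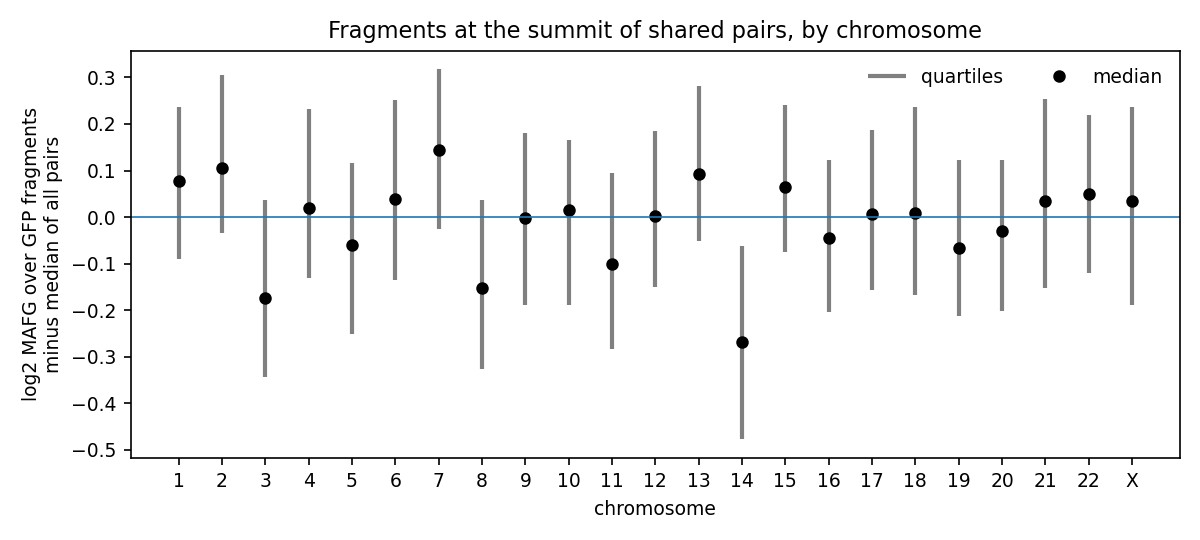
Log2 ratio of MAFG-cell to GFP-cell fragments at the summits of shared pairs, minus the median of all pairs, by chromosome (points, medians over pairs; bars, quartiles). Chromosome 14 is lowest at -0.27 and chromosome 7 highest at 0.14.

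The gene lists were read against the shared pairs with a protein-coding gene. Of these, 0.803% were wider and 11.7% narrower by 1.5-fold, 16.9% ranked higher and 18.2% lower by fold enrichment. The fragment ratio had a counting interval above the median of all pairs in 4.02% and below it in 6.49%, and their median centred log2 width ratio was 0.01. All the genes named were picked with earlier results of these libraries known.

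Of 15 pigment and melanosome genes, 9 had a shared pair, GPR143 a weak peak in GFP cells only (fold enrichment 7.66), and TYRP1, DCT, MLANA, OCA2 and TRPM1 had none in either line. SLC45A2 was the 1 wider member and 0 were narrower, with a median centred log2 width ratio of 0.04. TYR, the tyrosinase that starts melanin synthesis, had a domain of 8828 bp in GFP cells and 7887 bp in MAFG cells, with 107 and 158 fragments (1.30-fold over the median ratio, interval 1.01 to 1.67). SLC24A5, a melanosomal cation exchanger, had 53 and 80 fragments over 4516 and 3258 bp, at summits 1221 bp apart. TYR and SLC45A2 were the 2 of 9 members with an interval above the median ratio, and no member had one below. The TYR summit lay 2873 bp after the start in GFP cells and 2008 bp after it in MAFG cells, so its fragments were read at different sites. RAB38 ranked 38.7 points higher by fold enrichment with 60 and 74 fragments, and MLPH had a shift of -31.7 points with 70 and 75.

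Of 19 melanocyte and neural crest regulators 16 had a shared pair, and SOX9, KIT and IRF4 had none in either line. None was wider or narrower by 1.5-fold. SOX10, a neural crest regulator, had 10390 and 5580 bp (7616 bp over 2 MAFG-cell peaks) and 334 and 312 fragments. It stood at percentile 99.7 and 99.3 by fold enrichment. MITF itself had 262 and 230 fragments over 4559 and 3325 bp at the wider of its 2 pairs. Both, together with LEF1, had counting intervals below the median ratio, and TFAP2C, with 114 and 170 fragments, had one above. Of 17 genes of the dedifferentiated state, 9 had a shared pair, AXL and NGFR had weak GFP-only peaks (4.73 and 10.7), and EGFR, CCN1, TGFBI, NNMT and ROR2 had none.

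For MAF and NRF2 targets, 20 of 23 had a shared pair, 0 were wider or narrower by 1.5-fold, and the median centred log2 width ratio was 0.18. By fold enrichment 5 ranked higher (SLC7A11, SRXN1, EPHX1, PRDX1 and GSR) and 3 lower (NQO1, FTL and PGD). Ranked by fragments, 1 stood at least 20 points higher and 0 lower. Only SLC7A11, the cystine importer, had a fragment ratio with an interval off the median ratio, with 77 and 125 fragments (1.43-fold, interval 1.06 to 1.92) over 4121 and 4155 bp. These were read at different sites, with a MAFG-cell minus GFP-cell summit position of -994 bp. NQO1, a quinone reductase, had 127 and 134 fragments, HMOX1, heme oxygenase, 31 and 46, GCLM 114 and 139, and TXNRD1 154 and 152. The NQO1 and SLC7A11 peaks were overlapped by anti-MAFG peaks in 3 of 3 libraries of both lines, and the peak of GCLM, whose promoter is printed above, in 1 of 3 libraries of each.

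Of 10 small MAF proteins and partners 8 had a shared pair. The endogenous MAFG promoter had 3527 bp and 234 fragments in GFP cells and 2843 bp and 286 fragments in MAFG cells (1.07-fold, interval 0.900 to 1.28), which does not measure the transgene. KEAP1, the adaptor that marks NRF2 for degradation, had 106 and 127 fragments but a peak of 2952 bp in GFP cells and 1068 bp in MAFG cells. NFE2L3 was the other narrower member, at 902 and 358 bp. NFE2L2, encoding NRF2, had 151 and 167 fragments and BACH1 89 and 131, and NFE2 and BACH2 had no peak.

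All 16 MAPK targets and feedback genes had a shared pair, and their domains were broad, with a median of 6232 bp in GFP cells and 5124 bp in MAFG cells against 2641 and 2011 bp for pairs with a gene. Among the feedback inhibitors DUSP6 had 176 and 195 fragments, SPRY2 315 and 372, SPRED2 197 and 212, DUSP4 208 and 197, and SPRY4 286 and 269 (0.826-fold, interval 0.697 to 0.979). ETV1 was the 1 narrower member, at 8660 and 3906 bp (5458 bp over 2 MAFG-cell peaks) with 71 and 73 fragments. FOS had 144 and 95 fragments and, with EGR1 and SPRY4, an interval below the median ratio. Of 15 MITF-linked survival and cell-cycle genes 14 had a shared pair and MET had none. BCL2A1, an antiapoptotic MITF target, had 49 fragments in GFP cells and 103 in MAFG cells (1.85-fold, interval 1.30 to 2.65) over 5280 and 5189 bp. Its summit lay 1535 bp after the start in GFP cells and 557 bp after it in MAFG cells, so these fragments were read at different sites. The cell-cycle genes CDKN2A, with 150 and 120 fragments (0.702-fold, interval 0.548 to 0.899), and CDK4, with 162 and 144 (0.780-fold, interval 0.619 to 0.983), had intervals below the median ratio. PPARGC1A, a coactivator of mitochondrial genes, had a peak of 3173 bp in GFP cells and a paired peak of 418 bp in MAFG cells, with 31 and 27 fragments at summits 1249 bp apart, and 2 MAFG-cell peaks together covered 773 bp.

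Other lists held single genes that stood off. DNMT3A, a DNA methyltransferase, had 34 and 81 fragments (2.09-fold, interval 1.39 to 3.22), and KDM5B, an H3K4 demethylase, and EZH2 also had intervals above the median ratio among the 14 chromatin genes with a shared pair. In the antigen presentation list HLA-B had 65 and 28 fragments and HLA-C 78 and 134. HLA genes are near-identical in sequence, so their reads can be split between copies and these values are uncertain. Housekeeping genes, 14 of 14 with a shared pair, had a median log2 fragment ratio of -0.18 relative to all pairs, and 0 were wider by 1.5-fold. Of 39 HOX genes 18 had a shared pair and HOXB8 and HOXC11 a GFP-only peak, and HOXA13, at 1361 and 350 bp, was the 1 narrower member.

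**Figure D5:**
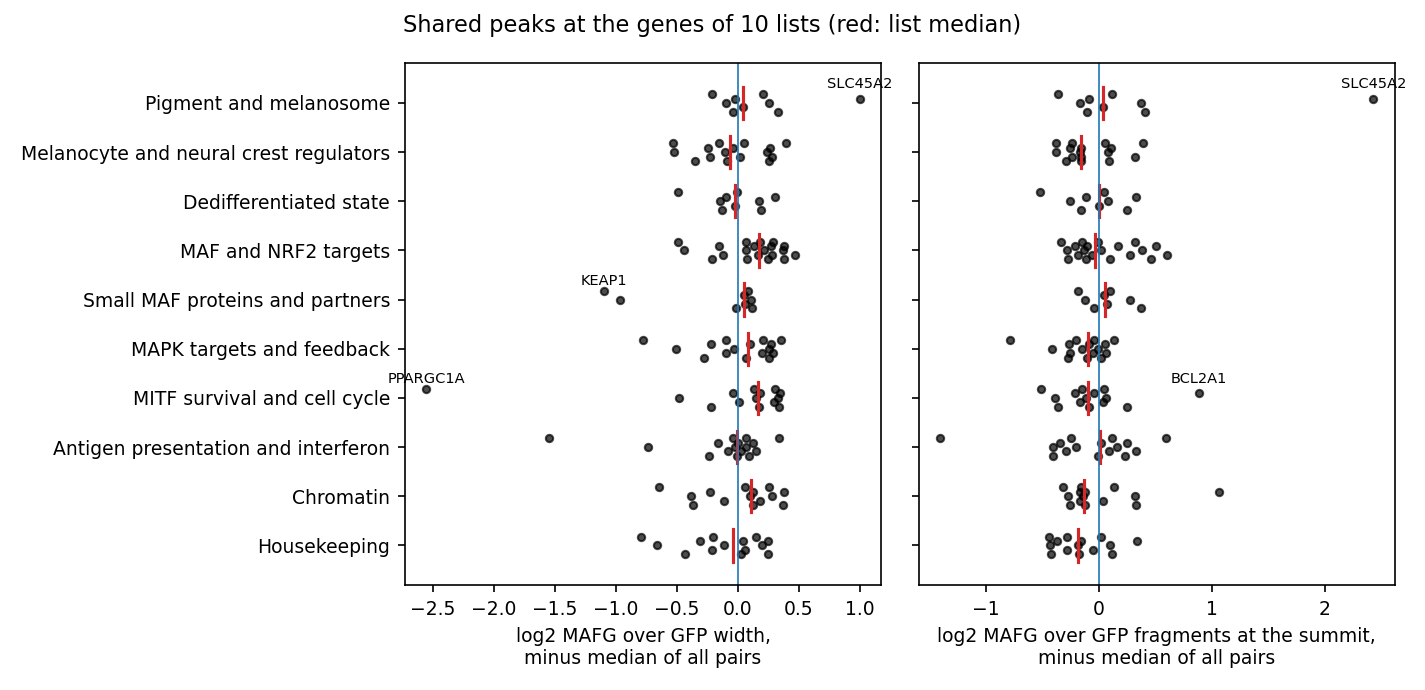
Shared peaks at the genes of 10 lists: log2 ratio of MAFG-cell to GFP-cell width (left) and of summit fragments (right), each minus the median of all pairs. Points are genes and red bars list medians; SLC45A2 lies farthest right in both panels (1.00 and 2.43) and PPARGC1A farthest left in width (-2.55).

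The anti-MAFG and anti-MITF libraries give a readout of the same lines that did not enter the pairing. In GFP cells, shared pairs were overlapped by an anti-MAFG peak in 36.6% ± 9.09 (SD, n = 3 libraries) and by an anti-MITF peak in 54.7% ± 0.491. GFP-only H3K4me3 peaks were overlapped in 32.6% ± 7.36 and 38.7% ± 0.827. Pairs that ranked lower in MAFG cells by fold enrichment were overlapped by GFP-cell anti-MITF peaks in 68.7% ± 0.193, and those that ranked higher in 45.8% ± 1.01. For anti-MITF the lowest library of the former was at 68.5% and the highest of the latter at 47.0%. The rank in GFP cells helped to set both classes, so they differ in GFP-cell fold enrichment by selection. All 3 libraries were laid over the same peaks, so their spread does not show whether the H3K4me3 shifts would repeat. In MAFG cells, whose lists are much shorter, shared pairs were overlapped in 2.24% ± 0.504 and 6.71% ± 0.513, and MAFG-only peaks in 12.2% ± 2.45 and 13.7% ± 2.45. Overlap moves with the length of these lists and with the width of the H3K4me3 peak, and was not compared between the lines.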

How the data were processed

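CUT&RUN peak lists, 1 per library, were deposited by the authors. The submitters' processing notes list cutadapt 1.8.1, Bowtie2 2.4.1, MACS2 2.1.1.20160309, ChIPseeker 1.32.1 and deepTools with build GRCh38 (hg38), without roles or settings. The deposited values used are the fold enrichment at the summit (a linear ratio), the −log10 of the p-value and q-value, and positions. Read totals are not given in the lists.

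Peaks were paired, ranked and compared with pandas 2.3.3 and scipy 1.17.1, figures with matplotlib 3.10.9. Summit fragments and local background were solved jointly from the deposited fold, (pileup + 1) / (background + 1), and a Poisson p-value, with a scale of 1 in GFP cells and 0.350 in MAFG cells; 1 MAFG-cell peak was left out. Counting intervals cover counting error only. Starts came from RefSeq (GRCh38.p14), with none listed on chromosome 8. For 4162 genes without a start, gene ends within 1000 bp served.

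Named are the 10 pairs with the largest gain and loss of width and of rank and the 10 widest, among pairs of at least 500 bp and −log10 q of 5 in both lists with a gene in both peaks; the 10 strongest single-line peaks; and list members. Members and lists were chosen with earlier results of these data known. Ranking by fragments, runs and windows were added after seeing the data. Pairing and recovery were tested on simulated data. Some members of these lists are not reported here.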

Additional observations from a re-analysis of the deposited data

How the results depend on the processing

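No paired analysis was possible because each line had 1 H3K4me3 library and no test was made. Requiring an overlap of 50% of both peaks gave shared shares of 69.5% of GFP-cell and 81.5% of MAFG-cell peaks, a median log2 width ratio of -0.32, and 86 wider and 262 narrower pairs. Keeping peaks with a −log10 q of at least 5 gave 80.7%, 95.3% and -0.36. Equal numbers of best peaks gave 91.3% in both lines, and joining peaks within 1000 bp gave 82.5%, 98.0% and -0.36. Summing MAFG-cell peaks, chosen after seeing the data, gave -0.36. Without centring, 54 pairs were wider and 3268 narrower. Ranking by −log10 q gave 940 pairs higher and 1025 lower, ranking among all peaks 880 higher and 2789 lower, and ranking by fragments, also chosen after seeing the data, 247 higher and 298 lower.

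Among named pairs, joining reversed the rank shift of ATP6V1E2 and RHOQ (-14.9) and H2AZ1 (2.39), and the width ratio of AP4S1 and STRN3 (0.14), UPP1 (0.17), NPC2 (0.065) and H2AZ1 (0.22). Summed widths reversed AP4S1 and STRN3 (0.0069) and H2AZ1 (0.15). Fragments reversed the rank shift of LOC124904276 (3.40), FNDC3B (-12.3), GATD1 (3.52), XPO1 (0.17), CUEDC2 (4.28) and KMT2E (0.91). Of 39 named shifts past 20 points, 16 stayed past it by fragments and 17 had the same sign below it. The 39 include pairs picked for their shift in fragment rank, which stay past the limit by selection, so these counts do not measure how far the 2 ranks agree. Of the pairs named for their shift in fold-enrichment rank, only PTGR2, SRSF5 and ZC3HAV1L stayed past 20 points by fragments. The causes were not tested.

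With anti-MAFG and anti-MITF peaks of −log10 q of at least 5, GFP-cell shared pairs were overlapped in 26.1% and 41.2%, GFP-only peaks in 30.4% by anti-MITF, MAFG-cell shared pairs in 1.58% and 4.02%, and MAFG-only peaks in 9.41% by anti-MAFG. Leaving out each of these libraries in turn gave 32.7% to 41.6% (anti-MAFG) and 54.5% to 55.0% (anti-MITF) for GFP-cell shared pairs. Read totals are not given, and the weakest listed peak had 5 fragments in GFP cells and 12 in MAFG cells.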
